A study of Mus musculus with 8 samples.

Results

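The 34 genes described here are interferon-stimulated genes, taken by symbol from the 25239 gene symbols counted in each library. They cover the transcription factors of interferon signalling, sensors of viral nucleic acid, the proteins that tune those sensors, and antiviral effectors. Interferons are secreted proteins that bind receptors on the cell surface, activate JAK kinases and so turn on a large set of genes. In the type I pathway, STAT proteins, STAT2 among them, join IRF9 and bind the interferon-stimulated response element of target promoters. The type II pathway acts through another promoter element, the gamma-activated site. Many of these genes keep a basal level without any infection, and the sensors also meet RNA and DNA made by the cell itself.

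The libraries were made from fetal ovaries at E14.5, the stage at which female germ cells are entering meiosis. Control embryos were Bmpr1a fl/fl and *Bmpr1a*-cKO embryos, also called mutant here, were Bmpr1a fl/fl with 1 copy of the inducible Oct4-Cre (Oct4-Cre Cre/WT), all on a C57BL/6 background. *Bmpr1a* encodes a type I receptor for bone morphogenetic proteins, and the Oct4 promoter limits its deletion to germ cells, so the somatic cells of a mutant ovary keep the gene. The dams, which carried embryos of both genotypes, were given 1 mg of 4-hydroxytamoxifen together with 0.5 mg of progesterone on the 3 days from 9.5 to 11.5 dpc, so control embryos met the drugs too but carried no Cre. There were 4 libraries of each genotype. Each pooled the ovaries of 2 embryos, 8 embryos a genotype from 6 litters, and the litter of each library was not given, so litter was not part of any test.

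The depth was 10622684 to 15365052 counts per control library and 8562961 to 14887102 per *Bmpr1a*-cKO library. Expression is given as CPM (counts scaled to a common library size after TMM normalization), and 3 counts, the limit that a count of 0 allows, were 0.189 to 0.357 CPM depending on the library. Fold changes are given as Log2FC of *Bmpr1a*-cKO over control, and the FDR is that of the edgeR quasi-likelihood test, two-sided and adjusted by Benjamini-Hochberg over the 14249 genes tested. Germ cells and pregranulosa cells were present in both genotypes, with *Ddx4* at 142 and 153 CPM and *Foxl2* at 118 and 79.3 CPM (means of control and *Bmpr1a*-cKO libraries). The level of *Bmpr1a* itself, 218 ± 15.2 CPM against 194 ± 10.4 CPM in the mutant (SD, n = 4 each; edgeR FDR = 0.0670), does not check the labels, since counts are per gene and somatic cells keep it. As these are whole ovaries, fewer cells of a type and less RNA per cell cannot be told apart.

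Most of the 34 genes were expressed at a low level in both genotypes. On the scale of CPM per kilobase of merged exons, which allows levels of different genes to be compared, *Bst2*, which encodes tetherin, a membrane protein that holds virions at the cell surface, stood highest at 38.9 in control and 43.2 in *Bmpr1a*-cKO ovaries. *Ifi27*, a mitochondrial protein gene, came next at 22.1 and 26.03, followed by *Trim25* at 11.6 and 15.7. At the other end were *Mx1* (0.0100 and 0.00900), *Zbp1* (0.0200 and 0.0606), *Mx2* (0.0912 and 0.103) and *Ifit1* (0.0985 and 0.0710), again in CPM per kilobase. *Ddx58* moved from rank 9 of the 34 in control to rank 4 in *Bmpr1a*-cKO ovaries, the level per kilobase going from 3.36 to 13.2.

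The genes most often used as a readout of an interferon response were close to the limit of the depth. *Isg15*, a ubiquitin-like protein that is attached to other proteins, had 7, 3, 5 and 5 counts in the control libraries and 1, 4, 5 and 9 counts in the *Bmpr1a*-cKO libraries. For *Ifit1*, which encodes a protein that blocks translation of foreign RNA, the counts were 7, 0, 1 and 6 in control and 0, 0, 2 and 8 in mutant libraries. The dynamin-like antiviral gene *Mx1* had 4 counts in the 8 libraries together, and its relative *Mx2* is annotated as a polymorphic pseudogene in GENCODE M21. With these 3, *Ifit3*, *Usp18*, *Zbp1*, *Mx2* and *Gbp3* did not pass the filter on low counts, so 8 of the 34 genes were not tested and 26 were. When the filter was removed, edgeR gave 0 of the 8 an FDR below 0.05 and 0 an unadjusted p below 0.05, the lowest FDR being 0.251 (*Gbp3*). *Ifit3* is near-identical to *Ifit3b*, and reads that fit both copies may have been lost.

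**Figure D1:**
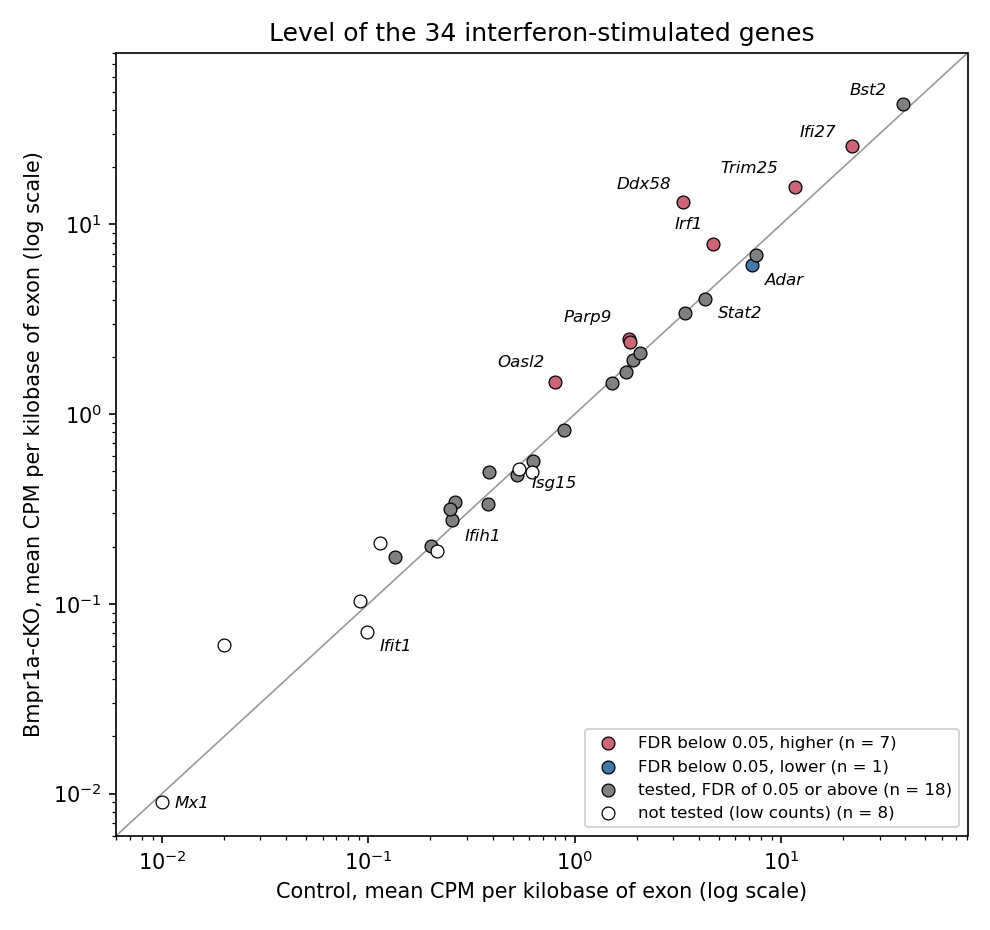
Mean level of each of the 34 genes in control (horizontal axis) and *Bmpr1a*-cKO (vertical axis) ovaries, in CPM per kilobase of merged exons on log scales, with the line of equal levels. Points are coloured by the result of the edgeR test. *Ddx58* lies furthest above the line among the tested genes, and the 8 open points are genes with too few counts to test.

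The promoters of the 34 genes were searched for the letters of the interferon-stimulated response element (GAAA, any 2 bases, then GAAA) and of the gamma-activated site (TTCNNNGAA, where N is any base), on both strands. The window ran from 250 bases before to 50 after each start site (RefSeq, GRCm38.p6). It was available for 25 of the 34 genes, with *Usp18*, *Dhx58*, *Rtp4*, *Ifi27*, *Parp9*, *Parp14*, *Zbp1*, *Mx1* and *Mx2* having no entry. The response element letters were found in 12 of the 25 genes (48.0%), against 3.99% of the 27025 genes in the promoter table and 3.36% of tested genes with an entry. They were present in all 4 of the untested genes with an entry, in 7 of 15 tested genes with an FDR of 0.05 or above, and in 1 of 5 that were higher at an FDR below 0.05, which was *Ddx58*. TTCNNNGAA, whose letters read alike on both strands, was found in 6 of the 25 genes (24.0%), against 9.55% of all genes in the table; 2 genes, *Bst2* and *Eif2ak2*, held both motifs, and in *Bst2* their letters overlap. It was present in 4 of 15 tested genes with an FDR of 0.05 or above and in 1 of 5 that were higher, which was *Irf1*. *Adar*, which was lower, held it too, and 0 of the 4 untested genes did. A match of letters is a description of the sequence and does not show that a factor binds there.

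The stretches below are shown because they set genes with repeated copies of the element and few counts (*Isg15*, *Ifit1*, *Ifit3* and *Gbp3*) beside *Stat2* and *Bst2*, which did not differ at the threshold, and *Ddx58* and *Irf1*, which rose. They are written 5′ to 3′ on the strand of the gene, in mm10 coordinates, with matches to the response element letters (or their reverse complement) in capitals, and for *Irf1* the match to TTCNNNGAA. All matches lie before the start site except that of *Ddx58*, which begins at base 3 of the transcript.
*Isg15*, chr4:156200855-156200916, minus strand: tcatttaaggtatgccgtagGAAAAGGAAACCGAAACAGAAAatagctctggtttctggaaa
*Ifit1*, chr19:34640765-34640833, plus strand: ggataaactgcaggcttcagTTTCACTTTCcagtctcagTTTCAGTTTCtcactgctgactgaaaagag
*Ifit3*, chr19:34583353-34583436, plus strand: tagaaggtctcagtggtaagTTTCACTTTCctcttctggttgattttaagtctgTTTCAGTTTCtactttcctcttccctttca
*Gbp3*, chr3:142559979-142560034, plus strand: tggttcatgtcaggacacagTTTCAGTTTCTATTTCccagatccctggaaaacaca
*Stat2*, chr10:128270256-128270305, plus strand: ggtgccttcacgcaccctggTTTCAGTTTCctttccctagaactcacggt
*Bst2*, chr8:71537567-71537622, minus strand: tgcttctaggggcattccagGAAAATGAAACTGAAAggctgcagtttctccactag
*Ddx58*, chr4:40239804-40239833, minus strand: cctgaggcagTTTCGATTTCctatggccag
*Irf1*, chr11:53769904-53769952, plus strand: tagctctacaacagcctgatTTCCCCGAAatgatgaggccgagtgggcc

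The comparison of genotypes asks how these genes differ between control and *Bmpr1a*-cKO ovaries. As only mutant embryos carried Cre, effects of Cre and of the loss of BMPR1A in germ cells cannot be told apart. A DEG, as the study defines it, has an absolute Log2FC above 0.5 and an FDR below 0.05. Of the 26 genes tested, 3 were upregulated DEGs (*Ddx58*, *Oasl2* and *Irf1*), where 6.08% of all genes tested were, and 0 were downregulated DEGs, where 4.04% of all genes were. At an FDR below 0.05 without a fold threshold, 7 of the 26 genes were higher, with 17.3% of all genes so called, and 1, *Adar*, was lower, with 12.7% of all genes so called. At an unadjusted p below 0.05 the same numbers, 7 higher and 1 lower, were found by edgeR and by DESeq2. All 4 *Bmpr1a*-cKO libraries lay above all 4 control libraries for 6 of the 26 genes (16.1% of all genes tested) and below them for 1 gene (11.7% of all genes tested). The median Log2FC of the 26 genes was 0.11 (14 above 0 and 12 below), and that of all genes tested was -0.0042 (7031 above 0 and 7218 below). The Log2FC of single genes ran from -0.24 (*Adar*) to 1.99 (*Ddx58*).

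When the libraries were scaled by the sum of 6 germ cell markers, not by TMM, the median Log2FC of all genes moved to -0.26 and the DEGs went from 866 upregulated and 576 downregulated to 372 and 1409, with upregulated genes making up 60.1% of DEGs before and 20.9% after. Under this scaling *Ddx58* was the only one of the 26 genes that was a DEG (Log2FC of 1.74), while *Oasl2* (Log2FC of 0.60, edgeR FDR = 0.0648) and *Irf1* (0.51, edgeR FDR = 0.0704) kept their direction and missed the threshold. The markers used for this scaling did not move together, as *Dazl* was upregulated and *Mael* and *Tdrd9* were downregulated. *Dazl* (Log2FC of 0.63) made up 326 of a mean sum of 666 CPM in control and 505 of 803 CPM in mutant libraries. The scaling thus rests largely on 1 gene that is itself a DEG, so it does not measure germ cell content alone.

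**Figure D2:**
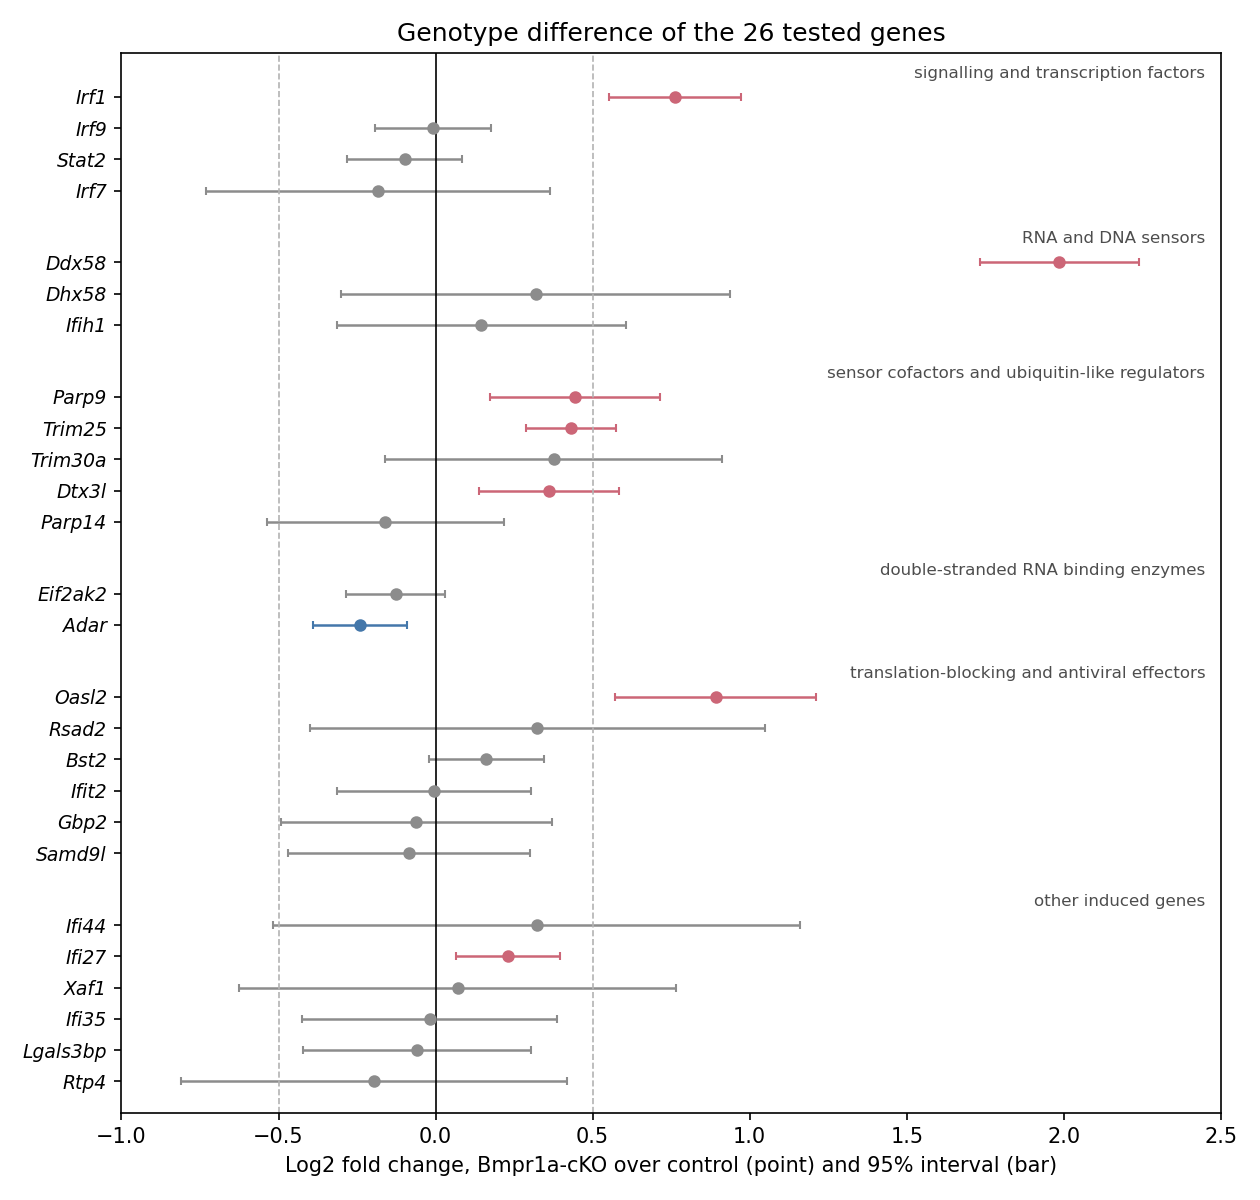
Log2FC of *Bmpr1a*-cKO over control (points) with 95% intervals (bars) for the 26 tested genes, grouped by role; dashed lines mark 0.5 in each direction. Red marks genes higher and blue the gene lower at an FDR below 0.05, and *Ddx58*, *Oasl2* and *Irf1* are the 3 whose points lie beyond the dashed lines. Under scaling to germ cell markers *Ifih1*, *Bst2*, *Ifi27* and *Xaf1* changed sign.

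Among the sensors, *Ddx58* encodes RIG-I, a cytosolic helicase that binds double-stranded RNA with a triphosphate end and signals through the adaptor MAVS. The control libraries had 21.8, 25.6, 29.7 and 17.8 CPM of it, and the mutant libraries 85.3, 92.9, 95.5 and 97.7 CPM. The highest control library was far below the lowest *Bmpr1a*-cKO library. The Log2FC was 1.99 (standard error 0.12, FDR = 5.59e-08 by edgeR), a 3.96-fold rise with a 95% interval of 3.32 to 4.72. It was a DEG in all 14 alternatives, with a Log2FC from 1.74 to 2.10. *Ddx58* held 4.75% to 7.55% of the summed CPM of the 34 genes in control libraries and 17.4% to 19.3% in *Bmpr1a*-cKO libraries.

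The relatives of RIG-I did not show such a difference. *Ifih1*, which encodes MDA5, the sensor of long double-stranded RNA, had 2.30, 2.03, 1.78 and 2.21 CPM in control and 1.79, 2.08, 2.20 and 2.999 CPM in mutant libraries, and the groups overlapped. Its Log2FC of 0.15 (95% interval -0.32 to 0.61, FDR = 0.665 by edgeR) leaves out a change of the size seen in *Ddx58*, although the sign turned under germ cell marker scaling and without *Bmpr1a*-cKO library 4. *Dhx58* encodes LGP2, which lacks the signalling domains of the other two and modulates them. With 0.739, 0.796, 0.842 and 0.883 CPM in control and 1.19, 1.19, 0.941 and 0.818 CPM in mutant libraries it also overlapped between genotypes, at a Log2FC of 0.32 (95% interval -0.30 to 0.94, FDR = 0.467 by edgeR). *Zbp1*, a sensor of left-handed nucleic acid, had 0 to 6 counts in a library and was not tested.

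*Ddx58* lies on chromosome 4 from 40203773 to 40239828 on the minus strand of mm10, and no other gene of GENCODE M21 overlaps it. Its nearest tested neighbours, looked up after the change in *Ddx58* had been seen, moved much less. *Aco1*, 5435 bases away, had a Log2FC of 0.21 (standard error 0.057, FDR = 0.0102 by edgeR) and *Topors*, 19773 bases away on the other side, had 0.46 (standard error 0.063, FDR = 2.96e-05 by edgeR). Neither was a DEG.

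Of 7 genes for sensor cofactors and ubiquitin-like regulators, 5 were tested and none was a DEG by edgeR. At an FDR below 0.05, 3 were higher, where 17.3% of all genes tested were. *Trim25*, a ubiquitin ligase known for its action on RIG-I, had 61.3, 73.7, 69.6 and 63.1 CPM in control and 90.3, 93.1, 90.5 and 86.3 CPM in mutant libraries. The genotypes did not overlap, and the spread within each was small, so that a Log2FC of 0.43 (standard error 0.068) had an FDR of 0.000125 by edgeR. *Parp9* and *Dtx3l* encode partners in a complex of an ADP-ribosyltransferase-like protein and a ubiquitin ligase. *Parp9* had 10.1, 9.20, 7.02 and 9.20 CPM in control and 14.2, 11.7, 10.5 and 12.4 CPM in mutant libraries, a Log2FC of 0.44 (FDR = 0.0145 by edgeR). For *Dtx3l* the values were 10.1, 9.73, 11.04 and 11.5 CPM in control and 14.9, 14.2, 13.5 and 12.3 CPM in mutant libraries, a Log2FC of 0.36 (FDR = 0.0153 by edgeR). In both, every mutant library was above every control library, though none of the 3 genes reached the fold threshold and none had an FDR below 0.05 under germ cell marker scaling. *Parp9* and *Dtx3l* stand head to head on chromosome 16 and share 682 bases on opposite strands, so with the strand setting of the counting not stated their reads cannot be fully separated. *Parp14*, another ADP-ribosyltransferase gene of the same region, had a Log2FC of -0.16 (95% interval -0.54 to 0.22), and *Trim30a* 0.38 (95% interval -0.16 to 0.91); *Isg15* and *Usp18*, the protease that removes ISG15 from proteins, were not tested.

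**Figure D3:**
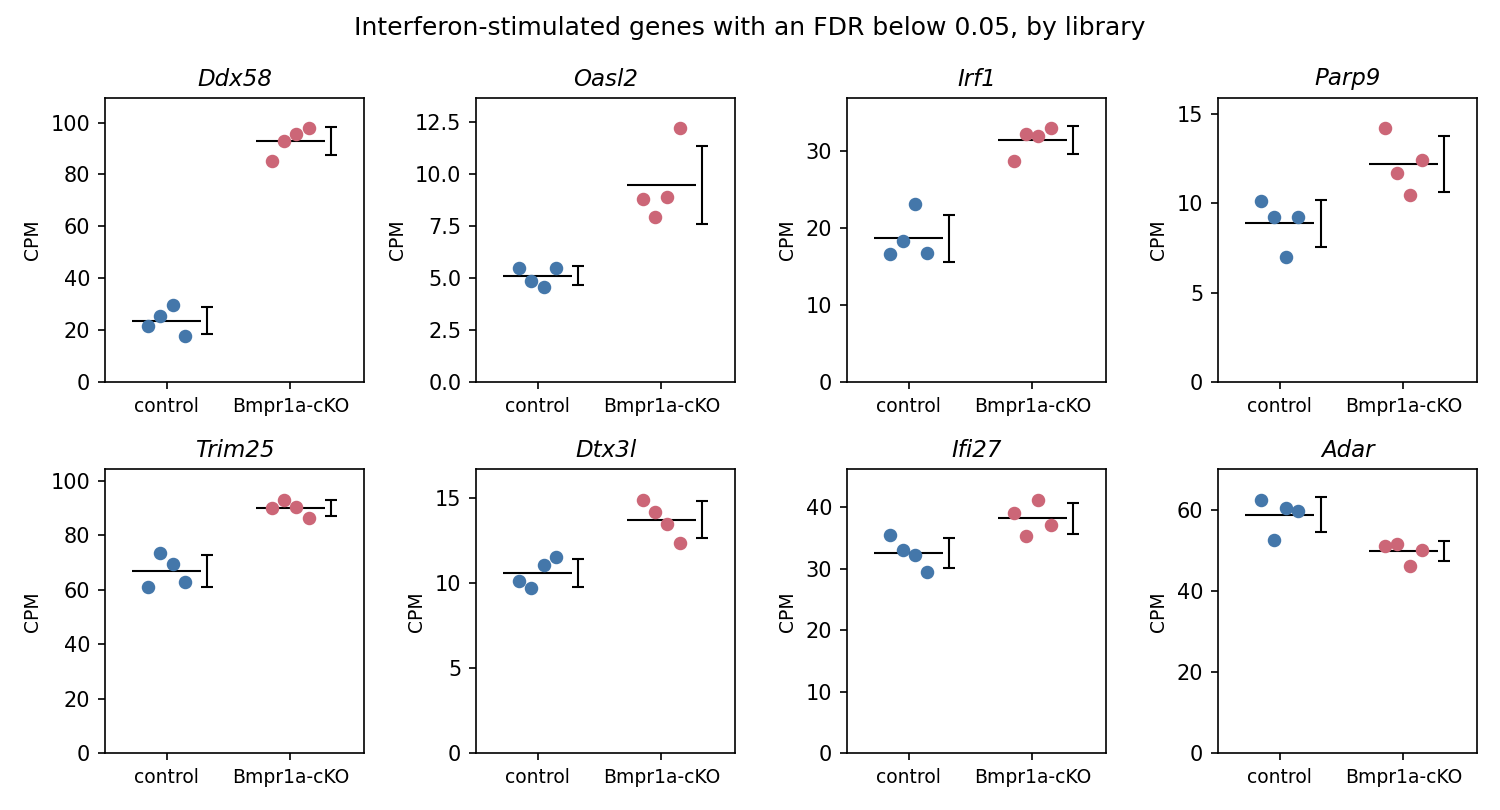
CPM in each of the 4 control (blue) and 4 *Bmpr1a*-cKO (red) libraries for the 8 genes with an FDR below 0.05; horizontal lines are means and bars are SD, and each vertical axis starts at 0. The genotypes do not overlap except in *Ifi27*, and *Adar* is the gene that is lower in *Bmpr1a*-cKO ovaries.

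Of the transcription factors, *Irf1* rose. It encodes a factor that is induced by interferon and also acts in the basal expression of antiviral genes. Its CPM was 16.6, 18.3, 23.1 and 16.7 in control and 28.7, 32.2, 31.9 and 32.9 in mutant libraries, without overlap. That is a Log2FC of 0.76 (standard error 0.10, FDR = 2.12e-05 by edgeR), or 1.70-fold with a 95% interval of 1.47 to 1.96. Its promoter holds the gamma-activated site letters shown above, and whether they have a part in its rise was not tested. The predicted gene *Gm17334* overlaps *Irf1* on the opposite strand. *Stat2* and *Irf9*, of the type I signalling complex, stayed within the spread between libraries. *Rnf31* overlaps *Irf9* on the same strand, so reads of *Irf9* may have been shared or lost. A same-strand overlap was found for 3 of the 34 genes, the others being *Parp14* and *Rtp4*. For *Stat2* the mean was 25.3 ± 1.54 CPM in control ovaries against 23.8 ± 2.38 CPM in mutants (SD, n = 4 each; Log2FC of -0.099, 95% interval -0.28 to 0.083, FDR = 0.428 by edgeR), and *Irf9* 18.3 ± 0.822 and 18.3 ± 1.36 CPM (Log2FC of -0.0088, 95% interval -0.19 to 0.18, FDR = 0.952). *Irf7*, the factor that amplifies type I interferon production, was low at 1.03 to 1.70 CPM in control and 1.07 to 1.499 CPM in mutant libraries (FDR = 0.644).

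Among the antiviral effectors, *Oasl2*, an oligoadenylate synthetase-like gene, rose. Control libraries had 5.50, 4.86, 4.58 and 5.48 CPM, and *Bmpr1a*-cKO libraries had 8.81, 7.95, 8.89 and 12.2 CPM, the last being the highest by some distance. The Log2FC was 0.89 (standard error 0.15, FDR = 0.000266 by edgeR), and 0.72 without that highest library, still a DEG. The other 5 effectors that were tested had an FDR above 0.05. *Ifit2*, of the same family as *Ifit1*, had 7.56 ± 1.28 and 7.57 ± 1.14 CPM (SD, n = 4 each; 95% interval of the Log2FC -0.31 to 0.30). *Bst2* had 35.1 ± 3.02 and 39.0 ± 4.17 CPM (Log2FC of 0.16, 95% interval -0.022 to 0.35). *Rsad2*, which encodes viperin, *Gbp2*, a guanylate-binding protein, and *Samd9l* had Log2FC values of 0.32, -0.061 and -0.084. The 95% interval of *Rsad2*, -0.40 to 1.05, is wide and holds a change as large as that of *Oasl2*.

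The group of double-stranded RNA binding enzymes held *Adar* and *Eif2ak2* only, as sensors such as *Ddx58* were grouped apart. *Adar* was slightly lower, and *Eif2ak2* did not differ at the threshold. *Adar*, which edits adenosine to inosine and so marks double-stranded RNA as self, had 62.5, 52.6, 60.4 and 59.8 CPM in control and 51.2, 51.5, 46.2 and 50.2 CPM in mutant libraries. Every mutant library was below every control library, by a narrow margin from control library 2. *Adar* fell by 0.24 on the log2 scale (standard error 0.071, FDR = 0.0161 by edgeR), with an FDR of 0.0587 without control library 1 and 0.0636 without *Bmpr1a*-cKO library 3. *Eif2ak2* encodes PKR, the kinase that halts translation when it meets double-stranded RNA, and had 38.6 ± 2.69 and 35.4 ± 1.95 CPM (SD, n = 4 each; Log2FC of -0.13, 95% interval -0.29 to 0.031, FDR = 0.224).

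Of the remaining 6 genes, all tested, 1 was higher at an FDR below 0.05, where 17.3% of all genes tested were. *Ifi27* had 35.4, 32.99, 32.2 and 29.4 CPM in control and 39.1, 35.4, 41.2 and 37.1 CPM in mutant libraries, with overlap between genotypes. Its Log2FC of 0.23 (FDR = 0.0337 by edgeR) kept an FDR below 0.05 in 7 of 14 alternatives and turned to -0.019 under germ cell marker scaling. *Ifi35*, *Ifi44*, *Rtp4*, *Xaf1* and *Lgals3bp* had Log2FC values from -0.20 (*Rtp4*) to 0.32 (*Ifi44*), all with an FDR above 0.05 and, for *Ifi44*, *Rtp4* and *Xaf1*, with wide 95% intervals (-0.52 to 1.16, -0.81 to 0.42 and -0.62 to 0.77).

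Other genes of the interferon pathway give the setting for these values. Of 9 genes for interferon receptors and their kinases, all tested, 1 was an upregulated DEG, where 6.08% of all genes tested were. This was *Ifnlr1*, the specific receptor chain for type III interferons, with 2.46, 1.59, 4.77 and 2.52 CPM in control and 7.38, 8.91, 8.89 and 7.63 CPM in mutant libraries (Log2FC of 1.55, FDR = 8.29e-05 by edgeR). *Ifnar1*, a chain of the type I receptor, was lower, with 335 and 277 CPM on average (Log2FC of -0.28, FDR = 0.00246 by edgeR). The median Log2FC of these 9 genes was -0.11. None of 12 genes for adaptors and kinases of nucleic acid sensing was a DEG by edgeR. Only 1 of them, *Traf3*, had an FDR below 0.05 (Log2FC of -0.18, FDR = 0.0401), where 12.7% of all genes tested were lower. *Mavs*, the adaptor that RIG-I and MDA5 share, had a mean of 47.2 CPM in control ovaries, and of 45.0 CPM in the mutant (FDR = 0.510). *Cgas*, the sensor of cytosolic DNA, had 3.01 ± 0.478 and 4.14 ± 0.447 CPM (Log2FC of 0.45, FDR = 0.0656), without overlap between genotypes but above the FDR threshold.

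Of 4 tested genes for other interferon regulatory factors, 1 was an upregulated DEG, where 6.08% of all genes tested were. This was *Irf8*, which encodes a factor of macrophages and other blood cells, with 2.60 ± 0.326 and 3.76 ± 0.632 CPM (SD, n = 4 each; Log2FC of 0.57, FDR = 0.0315 by edgeR). In a list of 13 restraints of the pathway and enzymes that clear nucleic acid, 12 were tested. An upregulated DEG, as 6.08% of all genes were, was 1 of the 12. It was *Ptpn6*, a phosphatase of blood cells, with 11.3 ± 2.32 and 17.1 ± 2.95 CPM and overlapping libraries (Log2FC of 0.63, FDR = 0.00427 by edgeR). At an FDR below 0.05, 3 were higher and 2 lower, against 17.3% and 12.7% of all genes. Besides *Ptpn6*, these were *Pnpt1* and *Rnaseh2a* (Log2FC of 0.364 and 0.356), and the lower *Irf2bp2* and *Socs3* (-0.235 and -0.356). *Trex1* was listed at 0 in every library, which may come from how reads were counted and does not show that the gene is silent.

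Of a further 43 interferon-stimulated genes, 25 were tested, 6 were upregulated DEGs (6.08% of all genes tested were) and 1 was a downregulated DEG (4.04% of all genes), and their median Log2FC was 0.12. *Phf11d* rose from 2.01 ± 0.287 to 22.1 ± 4.97 CPM (SD, n = 4 each; Log2FC of 3.47, FDR = 1.97e-09 by edgeR). It has close paralogs in the same cluster, so its reads may have been divided. *Ifitm3*, which blocks virus entry and is also a known gene of early germ cells, had 19.5, 19.4, 22.3 and 15.7 CPM in control and 34.2, 41.1, 45.2 and 42.5 CPM in mutant libraries (Log2FC of 1.10, FDR = 7.76e-07 by edgeR). Its neighbour in the family, *Ifitm1*, was lower (Log2FC of -0.28, FDR = 0.00246), and *Ifitm2* did not differ at the threshold (0.036, FDR = 0.729). *Oas3* had 8 counts in the control libraries together and 86 in the *Bmpr1a*-cKO libraries together, a ratio of 11.7 after scaling. The 95% counting interval of that ratio, 5.66 to 27.9, pools the libraries and leaves out the spread between them. The fit gave *Oas3* a Log2FC of 3.45 (FDR = 6.07e-06 by edgeR). *Gbp4* (Log2FC of 1.81, FDR = 0.00129), *Tor3a* (0.69, FDR = 0.00108) and *Nmi* (0.70, FDR = 0.0332) were also upregulated, *Gbp4* from 2 to 5 counts per control library. The downregulated gene was *Tdrd7*, which serves in germ cell granules as well, at 62.0 ± 6.89 and 42.3 ± 3.51 CPM (Log2FC of -0.55, FDR = 0.000118 by edgeR).

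**Figure D4:**
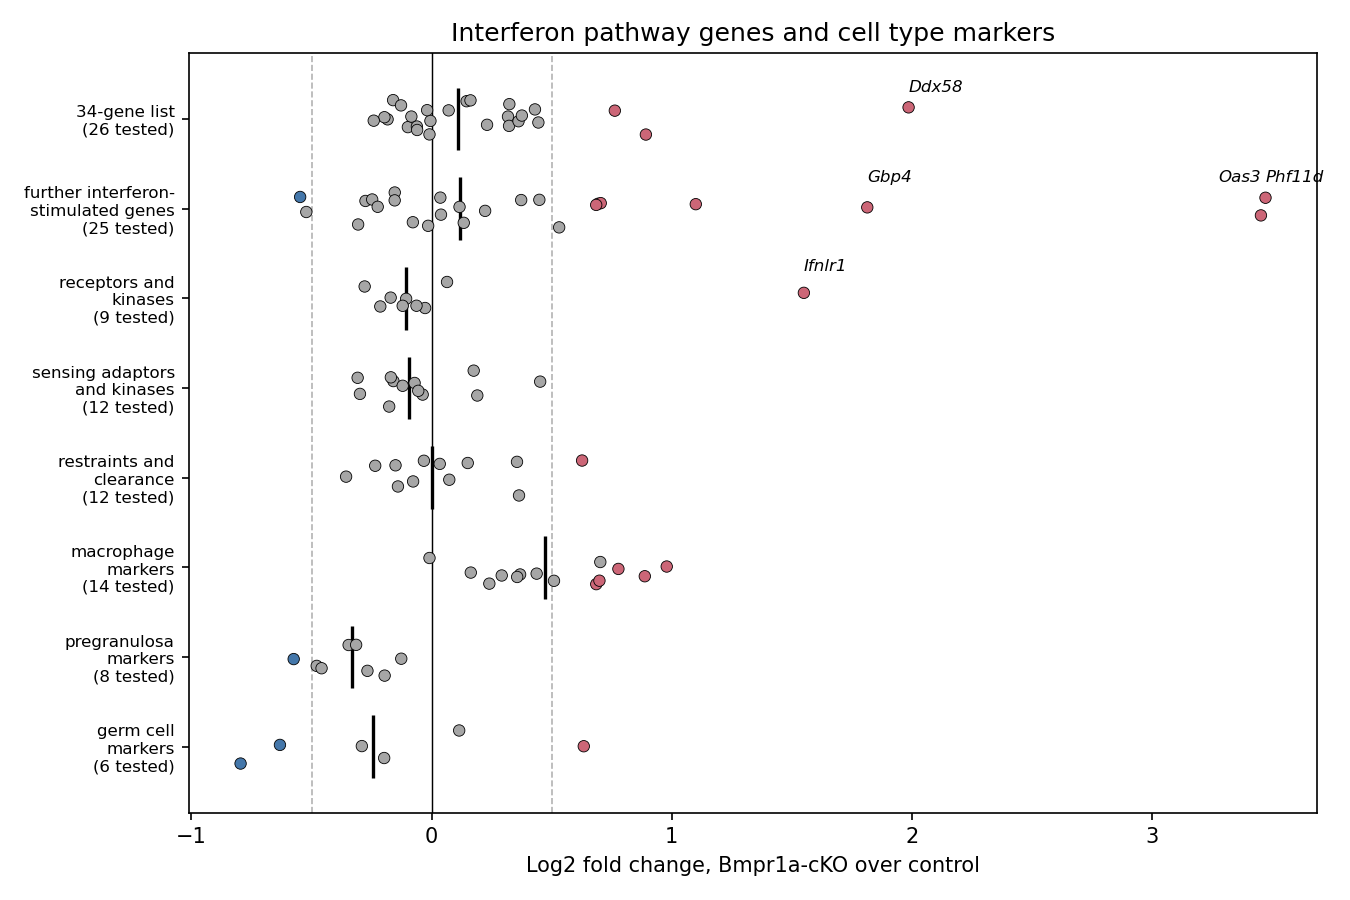
Log2FC of *Bmpr1a*-cKO over control for each tested gene (points) of the 34-gene list, 4 lists of the interferon pathway and 3 lists of cell type markers; black bars are medians, dashed lines mark 0.5 in each direction, and red and blue points are upregulated and downregulated DEGs. Most pathway genes lie between the dashed lines, while *Phf11d*, *Oas3*, *Ddx58*, *Gbp4* and *Ifnlr1* lie far to the right.

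Macrophages are rich in interferon-stimulated transcripts, and some of their markers differed between genotypes. Of 14 macrophage markers, all tested, 5 were upregulated DEGs (*Adgre1*, *C1qa*, *C1qb*, *C1qc* and *Tyrobp*), where 6.08% of all genes tested were. The FDR was 0.05 or above for 8 of the 14, and for 9982 of all 14249 genes tested. The libraries of the genotypes overlapped for 11 of the 14, and for 10274 of all 14249. A Log2FC above 0 was found for 13, with a median of 0.47 over the 14. The summed CPM of the 14 was 60.6 to 79.6 in control and 73.2 to 102 in mutant libraries, and none of the 14 was at 0 in any library. Over the same libraries the summed CPM of the 34 genes ran from 375 to 393 in control ovaries and from 489.8 to 507 in mutants, and without *Ddx58* from 357 to 366 against 398 to 409. Apart from *Ddx58*, the largest gains in mean CPM were those of *Trim25* (66.9 to 90.1) and *Irf1* (18.7 to 31.4). The rise in the sum was not seen in every gene, as 18 of the 26 tested genes had an FDR of 0.05 or above. Of the 12 with a Log2FC below 0, *Adar* alone had an FDR below 0.05. Among pregranulosa markers, 7 of 8 were lower at an FDR below 0.05, where 12.7% of all genes tested were. A downregulated DEG, as 4.04% of all genes were, was 1 of the 8, *Foxl2* (Log2FC of -0.57, FDR = 5.97e-06 by edgeR). The summed CPM of the 8 was 1617 to 1923 in control and 1397 to 1652 in mutant libraries. For 6 germ cell markers the sum was 587 to 784 in control and 603 to 958 in mutant libraries. Of 10 endothelial, 8 stromal and 4 mesonephric markers none was a DEG by edgeR, and *Plvap* and *Emx2* alone had an FDR below 0.05, both lower (Log2FC of -0.34 and -0.26). The stromal marker of lowest FDR was *Col3a1* (Log2FC of -0.13, FDR = 0.271 by edgeR). Of 7 erythroid markers 4, the globin genes, were listed at 0 in all libraries, which may also come from the counting, as *Alas2* had a mean of 32.8 CPM in control libraries. None of the other 3 was a DEG by edgeR (lowest FDR = 0.827, *Slc4a1*, with a Log2FC of -0.11). Whether these differences in marker RNA reflect cell numbers, and what part they have in the changes of *Ddx58*, *Irf1*, *Oasl2* and the other genes, was not tested.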

How the data were processed

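RNA-Seq reads were cleaned by the authors with Trimmomatic 0.39, mapped to mm10 and counted per gene with STAR 2.5.2, and the deposited files hold raw read counts per gene symbol for each library. The annotation and strand setting of the counting are not given in the sources used here. The deposited CPM table of the same libraries was not used. In R 4.3.3, genes were filtered with filterByExpr, scaled by TMM and tested with the robust quasi-likelihood F test of edgeR 4.0.16; DESeq2 1.42.0 was an alternative. Level per kilobase used merged exons of GENCODE M21, which matched all 34 symbols. Intervals are 95% intervals of the fit, except the counting interval of *Oas3*, which is from pooled counts. The alternatives were DESeq2, RLE or germ cell marker scaling, no filter, CPM above 1 in at least 4 libraries, the replicate number as a block, and each library left out. On simulated counts for 14126 genes, 88 of 96 genes changed by 1 on the log2 scale, 100 of 100 changed by 2 and 10 of 13930 unchanged genes were called. No 2 libraries were identical. The members, lists and alternatives were chosen with earlier results of these data known. All 34 genes are accounted for; those with an FDR below 0.05 are given by library, and of each other list every DEG, else the gene of lowest FDR. Further genes are given for their role or for an FDR below 0.05. *Bmpr1a*, *Aco1*, *Topors* and marker genes were named after their values were seen. A planned comparison of the RIG-I-like proteins was not made, as their sequences were not analysed here, and some pathway genes are not reported here.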

Additional observations from a re-analysis of the deposited data

Results flagged for a closer look

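In groups of 4 libraries, 2 of 52 groups (26 genes, each genotype apart) held a library further from the others than the critical value for groups of this size, and chance alone gives about 5% of groups. *Stat2* had 27.4 CPM in *Bmpr1a*-cKO library 1, against 22.3 to 23.0 CPM in the other mutant libraries. *Ifi44* had 0.371 CPM in *Bmpr1a*-cKO library 2, against 1.19 to 1.43 CPM in the other mutant libraries.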

How the results depend on the processing

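DESeq2, RLE scaling, both other filters and the replicate block changed no direction and no DEG among the 26 genes (24 under the filter of CPM above 1), while DESeq2 took *Ifi27* to an adjusted p of 0.0553 and left 6 genes higher below 0.05. Deviations of same-numbered libraries correlated at 0.22, 0.18, 0.13 and -0.087, and with 1 of 4 below 0.1 and the litters not given, the numbers were not taken as pairs. Not every library correlated best with its own number. Under the replicate block there were 876 upregulated and 586 downregulated DEGs, with 3 of the 34 genes upregulated. Germ cell marker scaling gave 372 upregulated and 1409 downregulated DEGs, 1 upregulated DEG among the 34 genes, 1 of them higher and 0 lower at an FDR below 0.05, and turned *Ifih1* to -0.18, *Bst2* to -0.12, *Ifi27* to -0.019 and *Xaf1* to -0.24; the cause was not tested. With 1 library left out, all DEGs ran from 761 to 993 upregulated and 491 to 659 downregulated, the 34 genes from 3 to 4 upregulated DEGs with 0 downregulated, and at an FDR below 0.05 from 6 to 8 higher and 0 to 1 lower. The fourth upregulated DEG was *Parp9*, at a Log2FC of 0.51 without control library 1 and 0.51 without *Bmpr1a*-cKO library 3, and *Dtx3l* had an FDR of 0.0531 without *Bmpr1a*-cKO library 2. *Adar* was above an FDR of 0.05 without control library 1 or *Bmpr1a*-cKO library 3. Log2FC values that crossed 0 with 1 library left out belonged to genes with an FDR above 0.05 and ran from -0.086 to 0.10 for *Ifit2*, -0.050 to 0.026 for *Irf9*, -0.047 to 0.23 for *Ifih1*, -0.37 to 0.031 for *Rtp4*, -0.11 to 0.092 for *Ifi35*, -0.061 to 0.25 for *Xaf1*, -0.28 to 0.065 for *Gbp2*, -0.19 to 0.0061 for *Samd9l* and -0.15 to 0.042 for *Lgals3bp*. Depth limits the 8 untested genes and those near 1 CPM.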
